A study of Mus musculus with 9 samples.

Results

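The 36 genes described here encode heat shock proteins, their co-chaperones and 2 heat shock transcription factors. They were chosen by gene symbol from the 55335 rows of the deposited count table, and all 36 were found and passed the filter on low counts that left 21765 genes for testing. By where their proteins work they were split into 27 cytosolic genes (with the transcription factors), 6 genes of the endoplasmic reticulum (ER) and 3 mitochondrial genes. The tissue was prelimbic cortex, a part of the medial prefrontal cortex, and its RNA was sequenced in 9 mice, 3 in each of 3 groups, on day 14 after surgery. Sham saline mice had the control operation and received saline. SNI saline mice had a spared nerve injury, in which branches of the sciatic nerve are cut to model neuropathic pain, and received saline. SNI R-HNK mice had the same injury and received R-HNK, the 2R,6R form of hydroxynorketamine, a metabolite of ketamine, at 10 mg/kg. No group was sham-operated and given R-HNK, so the drug was measured only in injured mice. Strain, sex, age and the time between dosing and tissue collection are not given in the sources used here.

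Chaperones bind unfolded or partly folded proteins, keep them from clumping and help them to fold. In the cytosol, HSP40 (DNAJ) proteins hand clients to HSP70, which passes some of them on to HSP90, and small heat shock proteins hold damaged proteins until HSP70 can act on them. HSF1 switches on many cytosolic chaperone genes when misfolded protein builds up, while a separate unfolded protein response acts in the ER and the mitochondrion keeps its own HSP60, HSP10 and HSP70. In neurons, the constitutive HSP70 (HSC70) also strips clathrin from recycling synaptic vesicles.

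Library totals ran from 53624337 to 73586375 counts. Levels are given as CPM, read counts scaled to a common library total, as mean ± SD over 3 mice where an error is shown, and fold changes on the log2 scale with their standard error (SE) from edgeR. The threshold was a p under 0.05 after Benjamini-Hochberg adjustment over all genes tested. The tissue label was met by cortical excitatory neuron markers, whose 8 genes summed to 1968 to 2627 CPM in sham, 2763 to 2849 CPM in SNI saline and 2357 to 2556 CPM in SNI R-HNK libraries. Markers of striatal medium spiny neurons, which lie outside the cortex, summed over 15 genes to 299.9 to 1609, 261 to 304 and 289 to 1009 CPM in the same order, and Six3, Isl1 and Sh3rf2 among them were at 0 in at least 1 library. They were high in 4 libraries, sham replicates 2 and 3 and SNI R-HNK replicates 1 and 3 (the striatal-high libraries below). No SNI saline library was among them, so striatal content was not balanced between the groups compared. The 8 fibroblast markers summed to 44.5 to 67.2, 28.4 to 32.3 and 37.2 to 52.1 CPM, with Lum at 0 in at least 1 library. Bulk RNA does not separate fewer cells of a type from less RNA per cell.

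In injured saline-treated mice the chaperone genes were mostly higher than in sham mice, by small amounts. The HSP40 genes Dnajb5 and Dnajb1 rose, to 1.64 and 1.32 times the sham level, and no other member passed. Of the 36 genes, 2 passed as higher (0.515% of all genes tested did) and 0 passed as lower in edgeR (0.556% of all genes). At an unadjusted p under 0.05, 17 of 36 were higher (47.2%, against 7.52% of all genes) and 0 were lower. The share of all genes lower at that p was not counted. DESeq2 called 9 of 36 members higher (2.44% of all genes) and 0 lower (3.0% of all genes), and limma-voom called 8 of 36 higher (2.63% of all genes) and 0 lower (2.58% of all genes). Beside Dnajb5 and Dnajb1, both called Hspa8, Hsph1, Hsp90aa1, Dnaja1, Stip1 and Ahsa1, and DESeq2 also called Chordc1. In 19 members every SNI saline library was above every sham library (52.8%, against 10.9% of all genes), and in 1, Hspa2, every SNI saline library was below (10.9% of all genes). The fold change was above 0 for 32 of 36 (47.6% of all genes), with a median of 0.16 against -0.02 over all genes tested. The median was 0.17 in the cytosolic, 0.18 in the ER and 0.07 in the mitochondrial class.

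Read by library, the members summed to 7065 to 7487 CPM in sham, 8218 to 8725 CPM in SNI saline and 7608 to 7912 CPM in SNI R-HNK mice. The ranges of the 3 groups did not overlap. No member had its highest library in the sham group, 28 had it in the SNI saline and 8 in the SNI R-HNK group. Their lowest library was in the sham group for 27. This was not counted over all genes, so no share stands beside it. Of the 39 further cytosolic chaperone genes described below, 29 had their highest library in SNI saline, 4 in sham and 6 in SNI R-HNK. The relative levels of all 36 genes by library show the SNI saline columns high for Hspa8, Hsph1, Hsp90aa1 and the upper DNAJ genes, and show Hspa1a, Hspa1b, Hspb1 and Cryab varying from mouse to mouse within groups. The excitatory neuron markers moved the same way as the members (2 of 8, Neurod6 and Fezf2, passed as higher in SNI saline), and the fibroblast markers the other way (3 of 8, Col1a1, Igf2 and Fmod, passed as lower). None of the 15 striatal markers passed in edgeR in either direction, and 12 were lower at an unadjusted p under 0.05. All 8 oligodendrocyte markers had a fold change below 0 in SNI saline mice, with a median of -0.44 and overlapping groups, and 0 reached an unadjusted p under 0.05. Of 8 astrocyte markers 4 (Gfap, Aqp4, Slc1a3 and Gja1) were lower and 1, Gjb6, higher at an unadjusted p under 0.05. Among 8 interneuron markers Gad1, Gad2 and Slc32a1 were lower and Pvalb and Lhx6 higher by the same measure, and of 8 microglial markers Cx3cr1 was lower. In edgeR 0 of the oligodendrocyte, astrocyte, interneuron and microglial markers passed. The chaperone genes were also fitted with the striatal score and without the striatal-high libraries, and the part of the other cell types in their levels was not tested.

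**Figure D1:**
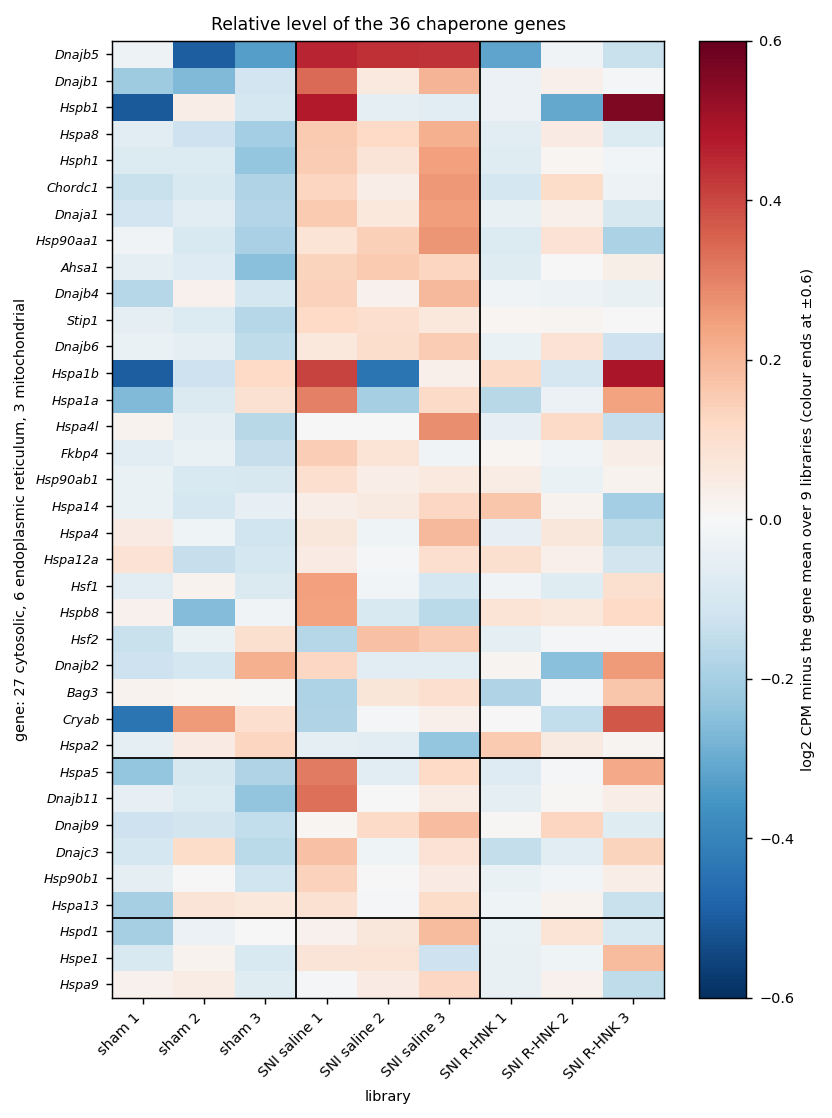
Relative level of the 36 genes in the 9 libraries, as log2 CPM minus the gene's mean over the libraries, with lines between the groups and between the cytosolic, ER and mitochondrial classes. Colour runs from blue (low) to red (high) and ends at ±0.6. The Dnajb5 row is red in all 3 SNI saline libraries and blue or near white in the other 6.

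Dnajb5, an HSP40 co-chaperone gene on chromosome 4 (chr4:42949814-42959425, plus strand, GRCm38), measured 174, 126 and 141 CPM in the 3 sham libraries (replicates 1, 2 and 3 in this order), 243, 240.3 and 239.5 CPM in the 3 SNI saline libraries and 142, 174 and 161 CPM in the 3 SNI R-HNK libraries. The 3 SNI saline libraries were nearly equal and stood above the other 6, while sham and SNI R-HNK libraries overlapped. The level went from 147 ± 24.4 CPM in sham to 241 ± 1.94 CPM in SNI saline mice, a rise of 0.72 ± 0.11 (edgeR adjusted p = 0.00814). It was 159 ± 16.2 CPM in SNI R-HNK mice, -0.60 ± 0.11 against SNI saline (adjusted p = 0.0667) and 0.12 ± 0.11 against sham (adjusted p = 1.00). In the test of any difference among the 3 groups Dnajb5 was the 1 member to pass (adjusted p = 0.0148; 0.381% of all genes passed). That call was lost without SNI saline replicate 1 (adjusted p = 0.0749), 2 (0.112) or 3 (0.125), with the striatal covariate described next (0.0755) and with the replicate block (0.0689). The rise from sham to SNI saline passed in edgeR with each of the 9 libraries left out in turn. Among the 5 libraries low in striatal markers, Dnajb5 read 174 CPM in sham replicate 1, 239.5 to 243 CPM in SNI saline and 174 CPM in SNI R-HNK replicate 2. Without the 4 striatal-high libraries the difference from sham was 0.48 ± 0.10 (adjusted p = 0.0616, with 1 sham library left and assumed to vary like the others), and with each library's striatal score as a covariate it was 0.50 ± 0.09 (adjusted p = 0.0349).

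Dnajb1, which encodes HSP40 itself, the chief partner of inducible HSP70 (chr8:83608193-83612653, plus strand), measured 61.7, 59.6 and 66.2 CPM in the 3 sham libraries (replicates 1, 2 and 3 in this order), 90.7, 74.4 and 82.5 CPM in the 3 SNI saline libraries and 69.8, 73.1 and 71.2 CPM in the 3 SNI R-HNK libraries. Every SNI saline library was above every library of the other groups, and every SNI R-HNK library was above every sham library. The level rose from 62.5 ± 3.38 CPM in sham to 82.5 ± 8.14 CPM in SNI saline mice, by 0.40 ± 0.08 (edgeR adjusted p = 0.0315). In SNI R-HNK mice it was 71.4 ± 1.63 CPM, -0.21 ± 0.08 against SNI saline (adjusted p = 0.607). The call was lost when 1 of 5 libraries was left out: sham replicate 2 (adjusted p = 0.140), sham replicate 3 (0.0641), SNI saline replicate 1 (0.0780), SNI saline replicate 3 (0.105) or SNI R-HNK replicate 1 (0.0590). The fold change itself was 0.43 without the 4 striatal-high libraries (adjusted p = 0.304) and 0.40 with the striatal covariate (adjusted p = 0.171).

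The regions before these genes differ in the elements they hold. RefSeq promoter windows (250 bases before to 50 after a start, GRCm38.p6) were found for 29 of the 36 members, and the letters of known elements were searched on both strands. Dnajb5 and Dnajb1 hold the cyclic AMP response half-element TGACG (or CGTCA) and no heat shock element of 2 or more units. The stretches from 170 bases before to 30 after a start are printed 5′ to 3′ for the 2 genes that rose, with the half-element in capitals. They lie at chr4:42949697-42949896 for Dnajb5 and chr8:83608005-83608204 for Dnajb1, both on the plus strand.
Dnajb5: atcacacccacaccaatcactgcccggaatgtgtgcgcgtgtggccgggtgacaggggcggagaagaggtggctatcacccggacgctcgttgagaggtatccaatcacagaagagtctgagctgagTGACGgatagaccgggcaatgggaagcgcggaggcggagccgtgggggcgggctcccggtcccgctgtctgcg
Dnajb1: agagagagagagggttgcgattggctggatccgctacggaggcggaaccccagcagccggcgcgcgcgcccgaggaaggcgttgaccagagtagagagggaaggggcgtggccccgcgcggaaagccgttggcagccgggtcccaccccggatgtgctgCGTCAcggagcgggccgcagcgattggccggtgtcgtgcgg
The half-element is common, in 19 of the 29 members and in 23.0% of all genes of the table, and the full TGACGTCA was in 0 of 29 and 2.03% of genes. It begins 43 bases before the Dnajb5 start and 11 bases before the Dnajb1 start. The serum response CArG box was in 0 of 29 windows and 1.81% of genes.

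Heat shock elements, repeats of GAA in alternating direction bound by heat shock factors, were searched as 3 units, GAANNTTCNNGAA or TTCNNGAANNTTC, and as 2, GAANNTTC or TTCNNGAA, which the longer forms contain. The 3-unit form was in 5 of 29 members (Chordc1, Dnajb6, Hspd1, Hspe1 and Hsph1) and in 0.662% of all genes, and the 2-unit form in 13 of 29 and in 17.0%. The ER stress element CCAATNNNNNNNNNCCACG was in Dnajc3, Hsp90b1 and Hspa5, 3 of 29, and in 0.137% of genes. A cytosolic, a mitochondrial and an ER example are printed with these elements in capitals: Hsph1 at chr5:149636286-149636485 on the minus strand, Hspe1 at chr1:55087978-55088177 and Hspa5 at chr2:34771920-34772119, both on the plus strand.
Hsph1: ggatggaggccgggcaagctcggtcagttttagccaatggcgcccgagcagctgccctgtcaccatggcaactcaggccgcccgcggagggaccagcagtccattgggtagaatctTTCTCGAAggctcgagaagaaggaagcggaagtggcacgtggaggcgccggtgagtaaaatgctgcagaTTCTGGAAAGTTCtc
Hspe1: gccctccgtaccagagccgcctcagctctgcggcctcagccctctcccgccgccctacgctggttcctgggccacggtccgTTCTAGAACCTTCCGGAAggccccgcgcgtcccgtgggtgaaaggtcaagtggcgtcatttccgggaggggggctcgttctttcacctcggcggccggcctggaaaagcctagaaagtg
Hspa5: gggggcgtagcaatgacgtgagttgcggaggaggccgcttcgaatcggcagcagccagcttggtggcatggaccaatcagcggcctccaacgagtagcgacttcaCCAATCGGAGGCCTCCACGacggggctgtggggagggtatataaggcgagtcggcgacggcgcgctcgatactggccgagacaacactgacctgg
Hspe1 and Hspd1 start back to back from this region, so a window of each holds the same element. It begins 89 bases before the Hspe1 start, and the Hsph1 element of 3 units begins 16 bases after its start. A match describes letters in a window, and binding was not measured.

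Among the other DNAJ genes, Dnaja1, an HSP40 that works with HSC70, measured 257, 265 and 246 CPM in sham, 309.9, 290.5 and 331 CPM in SNI saline and 269.7, 284 and 259.8 CPM in SNI R-HNK mice (replicates 1, 2 and 3 in each group). Every SNI saline library was above all 6 others. The difference was 0.28 ± 0.07 from sham (edgeR adjusted p = 0.0709) and -0.20 ± 0.07 from SNI saline to SNI R-HNK (adjusted p = 0.570). Against sham Dnaja1 passed in DESeq2, in limma-voom and without sham replicate 1. With the striatal covariate its difference from sham was 0.24 ± 0.09 (edgeR adjusted p = 0.431). Dnajb4 and Dnajb6 were also higher without overlap in SNI saline than in sham mice, at fold changes of 0.20 and 0.19, and Dnajb2 was at 0.999 times the sham level with overlapping groups. None of these 3 passed in edgeR, DESeq2 or limma-voom.

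**Figure D2:**
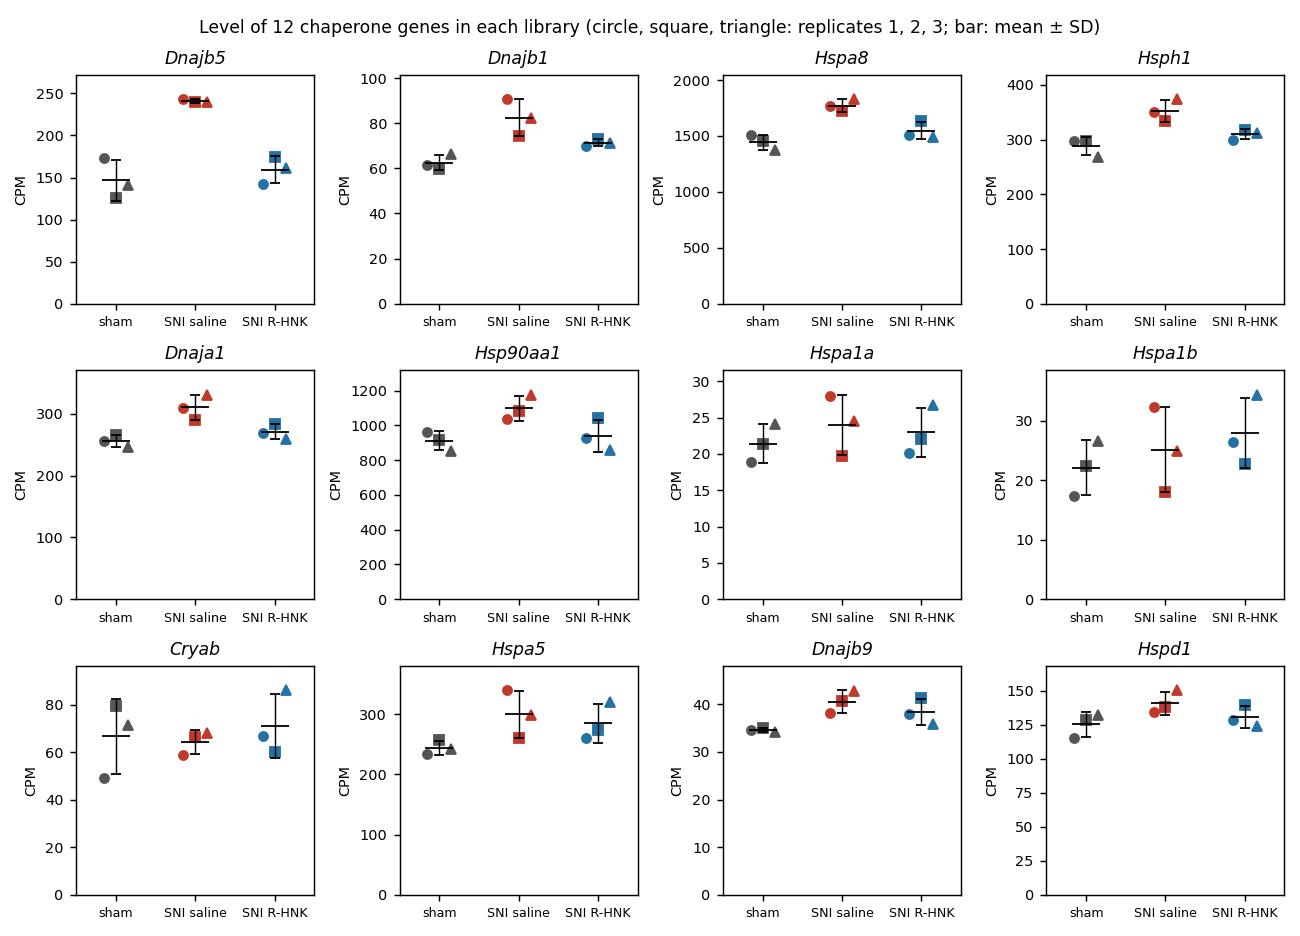
Level in CPM of 12 genes in each library, by group, with circle, square and triangle for replicates 1, 2 and 3 and a bar for the mean ± SD. Dnajb5 steps up to nearly equal values in the SNI saline libraries, Dnajb1, Hspa8, Hsph1 and Dnaja1 show smaller steps without overlap, and Hspa1a, Hspa1b and Cryab overlap in all groups.

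HSP70 genes split into a constitutive and an inducible set. Hspa8, which encodes HSC70, the constitutive HSP70 of neurons (chr9:40800984-40810087, plus strand), measured 1508, 1453 and 1372 CPM in sham, 1765, 1719 and 1830.1 CPM in SNI saline and 1509.8, 1638 and 1495 CPM in SNI R-HNK mice. All 3 SNI saline libraries were above the other 6, and sham and SNI R-HNK libraries overlapped. The difference from sham was 0.29 ± 0.07 (edgeR adjusted p = 0.0556). From SNI saline to SNI R-HNK it was -0.19 ± 0.07 (adjusted p = 0.556). Hsph1, the HSP110 that recharges HSP70 by exchanging its nucleotide (chr5:149614287-149636376, minus strand), measured 298, 298 and 269 CPM in sham, 350.2, 333 and 374 CPM in SNI saline and 300.2, 318 and 312 CPM in SNI R-HNK mice. It also had its 3 highest libraries in SNI saline, at 0.29 ± 0.07 from sham (adjusted p = 0.0631) and -0.19 ± 0.07 from SNI saline to SNI R-HNK (adjusted p = 0.595). Both Hspa8 and Hsph1 passed against sham without the low-count filter, in DESeq2, in limma-voom and without sham replicate 1. With the striatal covariate they were at 0.21 ± 0.07 and 0.24 ± 0.08 (edgeR adjusted p = 0.423 and 0.407). Without the striatal-high libraries they were at 0.24 ± 0.09 and 0.25 ± 0.10.

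Hspa1a and Hspa1b, the stress-inducible HSP70 genes, overlapped between all groups. Hspa1a measured 18.8, 21.3 and 24.1 CPM in sham, 27.9, 19.7 and 24.5 CPM in SNI saline and 20.2, 22.1 and 26.7 CPM in SNI R-HNK mice. Hspa1b measured 17.4, 22.5 and 26.6 CPM in sham, 32.4, 18.0 and 25.0 CPM in SNI saline and 26.5, 22.8 and 34.4 CPM in SNI R-HNK mice. In both genes SNI saline replicate 1 and SNI R-HNK replicate 3 were the 2 highest libraries, and the differences from sham were 0.17 ± 0.14 (edgeR adjusted p = 0.608) and 0.18 ± 0.24 (adjusted p = 0.762). They were 0.36 ± 0.18 and 0.54 ± 0.32 without the striatal-high libraries. With the striatal covariate they were 0.35 ± 0.17 and 0.60 ± 0.23 (edgeR adjusted p = 0.635 and 0.510). These are near-identical neighbours on chromosome 17: of the 100-base stretches of Hspa1a transcripts, 56.5% occur in other genes, most of them in Hspa1b, and their promoter windows match at 98.7% of 300 bases, so how counts were divided between them is uncertain. Counts for Hspa8 (28.5% of its stretches, chiefly a pseudogene), Hsp90aa1 (38.0%), Hspb1 (44.0%) and Hspd1 (23.9%) are uncertain for the same reason. To a lesser degree so are those for Dnajb6 (17.1%), Dnaja1 (16.6%) and Hspe1 (11.0%). Dnajb5, Dnajb1, Hsph1, Hsp90ab1 and Hspa5 share 0. Hspa1a and Dnaja1 are among the members that also overlap annotated genes on the other strand. Whether counting used strand was not given in the sources used here.

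Of the other cytosolic HSP70-type genes, Hspa2 was the 1 member lower without overlap in SNI saline mice, and it was singled out after its values were seen. It measured 44.0, 47.3 and 50.0 CPM in sham, 43.9, 43.6 and 38.9 CPM in SNI saline and 50.9, 47.4 and 46.2 CPM in SNI R-HNK mice, -0.16 ± 0.08 from sham (edgeR adjusted p = 0.331) and 0.19 ± 0.08 from SNI saline to SNI R-HNK (adjusted p = 0.625). The SNI saline libraries lay just under both other groups. Hspa4, Hspa4l, Hspa12a and Hspa14 had fold changes of 0.10 to 0.16 from sham and none passed.

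HSP90 and its partners were next. Hsp90aa1, the inducible cytosolic HSP90, measured 964, 917 and 855 CPM in sham, 1034, 1082 and 1177 CPM in SNI saline and 925, 1040.4 and 857 CPM in SNI R-HNK mice. SNI saline libraries were above every sham library, while SNI R-HNK replicate 2 reached the SNI saline range. Its differences were 0.27 ± 0.08 from sham (edgeR adjusted p = 0.136) and -0.22 ± 0.08 from SNI saline to SNI R-HNK (adjusted p = 0.606), and without the striatal-high libraries 0.19 ± 0.10 and -0.08 ± 0.10. The difference from sham passed in DESeq2 and limma-voom, and was 0.13 ± 0.09 with the striatal covariate (edgeR adjusted p = 0.778). Hsp90ab1, the constitutive form, measured 1569, 1513 and 1513 CPM in sham, 1732, 1661 and 1682 CPM in SNI saline and 1667, 1568 and 1639.9 CPM in SNI R-HNK mice, 0.14 ± 0.06 from sham (adjusted p = 0.255). It was above sham in all 3 SNI saline libraries and overlapped SNI R-HNK. The 4 HSP90 co-chaperones Stip1, which links HSP70 to HSP90, Ahsa1, which speeds HSP90's ATPase, Chordc1 and Fkbp4 were each higher without overlap in SNI saline than in sham mice, with fold changes of 0.15 to 0.28 and edgeR adjusted p of 0.0844 to 0.266. Stip1 and Ahsa1 passed in DESeq2 and limma-voom, Ahsa1 also in edgeR without sham replicate 1, and Chordc1 in DESeq2. With the striatal covariate Stip1, Ahsa1 and Chordc1 were at 0.16, 0.22 and 0.22 (edgeR adjusted p = 0.602, 0.515 and 0.587).

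The small heat shock proteins and the regulators of the response passed in no comparison in edgeR, DESeq2 or limma-voom. Hspb1, which encodes HSP25 (HSP27 in humans), measured 5.66, 8.23 and 7.44 CPM in sham, 11.1, 7.71 and 7.68 CPM in SNI saline and 7.82, 6.47 and 11.8 CPM in SNI R-HNK mice, 0.31 ± 0.23 from sham (edgeR adjusted p = 0.541). Cryab, alpha-B crystallin, which is abundant in glia, measured 49.2, 79.4 and 71.5 CPM in sham, 58.8, 66.3 and 68.1 CPM in SNI saline and 66.8, 60.1 and 86.2 CPM in SNI R-HNK mice, -0.05 ± 0.18 from sham (adjusted p = 0.926). In both, the groups overlapped, and SNI R-HNK replicate 3 was the highest library of the 9. Without the striatal-high libraries, which leaves sham replicate 1 alone in its group, the difference of SNI saline from sham was 0.65 ± 0.26 for Hspb1 (adjusted p = 0.566) and turned to 0.40 ± 0.12 for Cryab (adjusted p = 0.341). Sham replicate 1 was the lowest of the 9 libraries for both genes. With all 9 libraries and the striatal covariate, the differences from sham were 0.78 ± 0.23 for Hspb1 and 0.38 ± 0.12 for Cryab (edgeR adjusted p = 0.267 and 0.332). Hspb2 overlaps Cryab on the other strand over part of its exons, so reads there may belong to either. Bag3, a co-chaperone that leads damaged clients to autophagy, measured 5.42, 5.38 and 5.37 CPM in sham, 4.70, 5.62 and 5.74 CPM in SNI saline and 4.71, 5.29 and 6.00 CPM in SNI R-HNK mice, -0.01 ± 0.16 from sham (adjusted p = 0.983). Hsf1, the master transcription factor of the heat shock response, measured 39.1, 41.5 and 38.4 CPM in sham, 48.4, 40.4 and 38.0 CPM in SNI saline and 40.2, 38.9 and 43.7 CPM in SNI R-HNK mice, 0.09 ± 0.09 from sham (adjusted p = 0.673), and SNI saline replicate 1 alone stood high. Hsf2 and Hspb8 were at 0.08 and 0.09 from sham to SNI saline, and those groups overlapped in both genes. RNA levels of Hsf1 and Hsf2 do not measure the activity of their proteins.

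In the ER class all 6 genes had a fold change above 0 from sham (47.6% of all genes did), and none passed in edgeR, DESeq2 or limma-voom. In edgeR 3 were higher at an unadjusted p under 0.05 (7.52% of all genes). Hspa5, which encodes BiP, the ER's HSP70, which also holds the sensors of the unfolded protein response inactive (chr2:34771970-34777547, plus strand), measured 233, 257 and 242 CPM in sham, 339.8, 261 and 298 CPM in SNI saline and 259.9, 273 and 321 CPM in SNI R-HNK mice. Every sham library was below every library of both injured groups, and the injured groups overlapped. The differences were 0.30 ± 0.10 in SNI saline (edgeR adjusted p = 0.164) and 0.22 ± 0.10 in SNI R-HNK mice (adjusted p = 1.00), both from sham. Dnajb9, a BiP co-chaperone, measured 34.6, 35.0 and 34.1 CPM in sham, 38.1, 40.8 and 42.9 CPM in SNI saline and 38.0, 41.3 and 35.9 CPM in SNI R-HNK mice. It too had all sham libraries lowest, at 0.23 ± 0.08 in SNI saline (adjusted p = 0.162) and 0.15 ± 0.08 in SNI R-HNK mice (adjusted p = 1.00). Dnajb11 and Hsp90b1, the ER's HSP90, were higher without overlap in SNI saline than in sham mice (0.25 and 0.12), and Dnajc3 and Hspa13 overlapped (0.13 and 0.08).

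The 3 mitochondrial genes were 0.06 to 0.17 above sham in SNI saline mice, and 0 passed in edgeR, DESeq2 or limma-voom. Hspd1, which encodes HSP60 (chr1:55077835-55088243, minus strand), measured 115, 129 and 132 CPM in sham, 134, 138 and 150.4 CPM in SNI saline and 128, 139.6 and 124 CPM in SNI R-HNK mice, 0.17 ± 0.08 from sham (edgeR adjusted p = 0.286). Its SNI saline libraries were above all sham libraries and overlapped SNI R-HNK. Hspe1, the HSP10 lid of the HSP60 chamber, measured 44.9, 48.5 and 44.9 CPM in sham, 50.3, 50.5 and 43.8 CPM in SNI saline and 46.2, 46.9 and 54.5 CPM in SNI R-HNK mice, 0.07 ± 0.09 from sham (adjusted p = 0.754). Hspa9, the mitochondrial HSP70 that pulls proteins in through the inner membrane, measured 182, 185 and 170.2 CPM in sham, 178, 185 and 195 CPM in SNI saline and 173, 182 and 161 CPM in SNI R-HNK mice, 0.06 ± 0.07 from sham (adjusted p = 0.728). Groups overlapped for Hspe1 and Hspa9.

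R-HNK was compared with saline in injured mice. This comparison and the first share the SNI saline libraries, so the 2 sets of values are not independent and are given side by side only. In edgeR 0 of 36 members passed in either direction (of the 21765 genes tested, 0.0827% passed as lower and 8 genes as higher). At an unadjusted p under 0.05, 7 were lower (3.26% of all genes) and 1, Hspa2, was higher. The share of all genes higher at that p was not counted. The 7 were Hspa8, Hsph1, Hsp90aa1, Dnaja1, Dnajb1, Dnajb5 and Ahsa1, all cytosolic. DESeq2 and limma-voom each called 1 member, Dnajb5, as lower (adjusted p = 7.66e-05 and 0.00678; 0.257% and 0.152% of all genes), and edgeR did so without sham replicate 1 (adjusted p = 0.00726) and without sham replicate 2 (0.0396). Over all settings and left-out libraries its adjusted p ran from 7.66e-05 to 0.366. Every SNI R-HNK library was below every SNI saline library in 8 members (6.59% of all genes), the first 7 less Hsp90aa1 with Dnajb4 and Stip1, and above in Hspa2 (7.15% of all genes). The fold change was below 0 for 30 of 36 (48.6% of all genes), with a median of -0.09 against 0.01 over all genes. It was below 0 in 22 of 27 cytosolic, 6 of 6 ER and 2 of 3 mitochondrial genes.

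**Figure D3:**
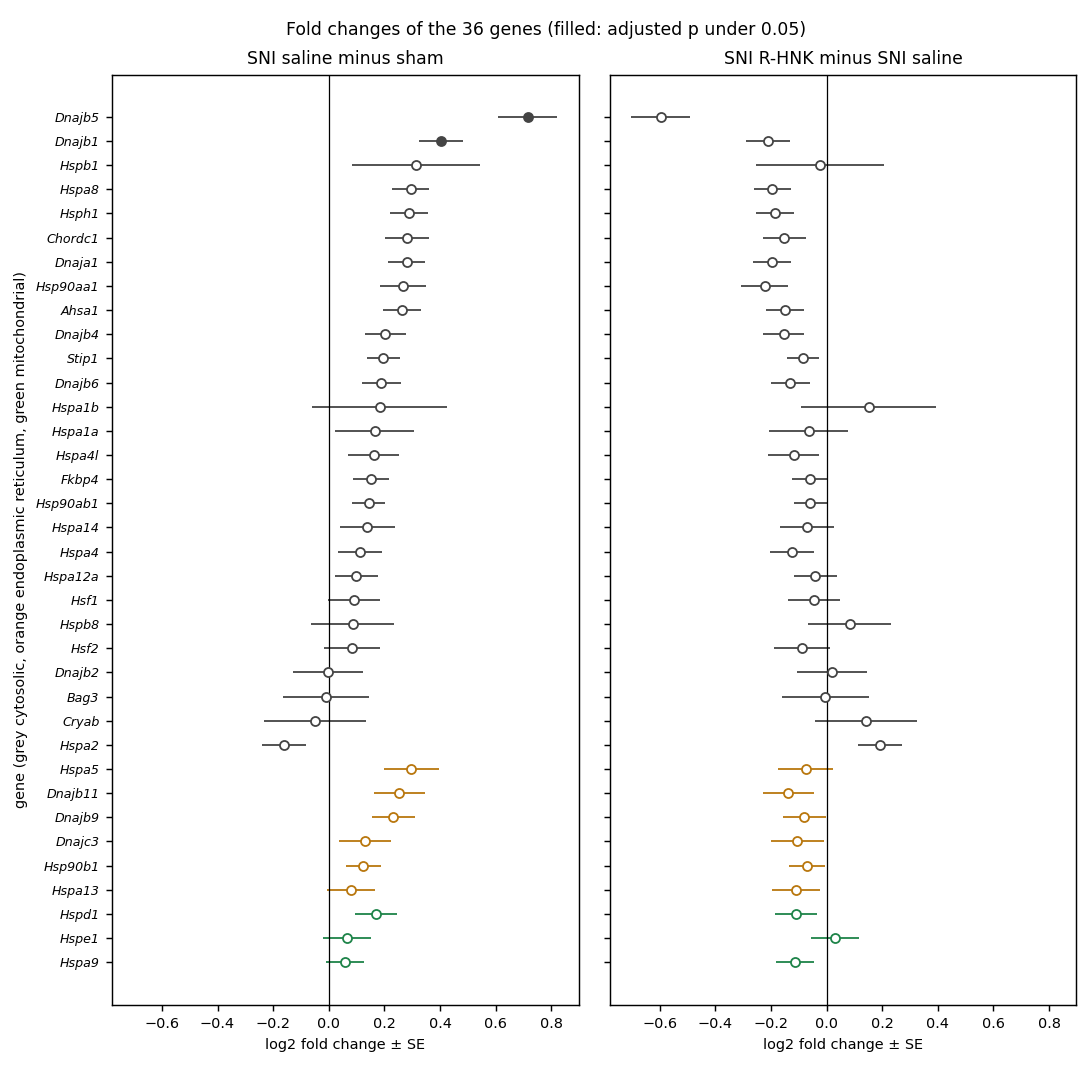
Log2 fold change ± SE of the 36 genes for SNI saline minus sham and SNI R-HNK minus SNI saline, ordered within the cytosolic (grey), ER (orange) and mitochondrial (green) classes by the first, with filled points for an adjusted p under 0.05. Dnajb5 and Dnajb1 are the filled points in the left panel, none is filled in the right, and both panels use the SNI saline libraries.

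Against sham, SNI R-HNK mice had 0 of 36 members past the threshold in edgeR, DESeq2 and limma-voom (0.00459% of all genes were higher in edgeR). At an unadjusted p under 0.05, 2 members were higher, Dnajb1 and Hspa5 (1.66% of all genes), and 0 lower, with the share of all genes lower not counted. The members whose SNI R-HNK libraries were all above sham were 7, Hsph1, Hspb8, Dnajb1, Stip1, Fkbp4, Hspa5 and Dnajb9 (4.43% of all genes). The fold change was above 0 for 31 of 36 (48.3% of all genes), with a median of 0.08. Dnajb1 was 0.19 ± 0.08 above sham (adjusted p = 1.00). In the test of any difference 14 members had an unadjusted p under 0.05, 11 of them cytosolic and 3 of the ER (10.9% of all genes). An adjusted p over the threshold does not show that R-HNK mice had returned to the sham level.

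Leaving out the 4 striatal-high libraries kept 1 sham, 3 SNI saline and 1 SNI R-HNK library, with each lone library assumed to vary like the SNI saline ones. From sham to SNI saline the fold change was above 0 for 32 of 36 members. Their median was 0.19, against 0.01 over all genes of that fit. The fold change turned direction in 4 members (Hspa12a, Hspb8, Cryab and Dnajb2) and moved by over 1.5 times in 12 more, while 20, Hspa8, Hsph1, Dnaja1, Dnajb1, Dnajb5 and Hspa5 among them, stayed within 1.5 times. Of the 12, Hspa1a, Hspa1b, Hspb1, Hsf2, Hspa13, Dnajc3, Hspd1 and Hspe1 were farther from 0, with Hspd1 at 0.30 ± 0.11 (adjusted p = 0.473), and Hspa2, Hspa4, Hspa4l and Hspa9 were nearer. From SNI saline to SNI R-HNK, 6 members turned and 17 moved by over 1.5 times, with Hspa8 at -0.12 ± 0.09. The median there was -0.09, against -0.01 over all genes. From sham to SNI R-HNK, 7 members turned, 20 moved and the median was 0.09, against 0.0 over all genes. With the striatal covariate the medians were 0.16, -0.12 and 0.07 in the same order, against -0.003, -0.005 and -0.003 over all genes. In that order 6, 5 and 1 members turned direction and 13, 13 and 12 more moved by over 1.5 times. From sham to SNI saline 17 members stayed within 1.5 times. In that fit Dnajb5 in the first comparison was the 1 call.

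Levels between genes were compared per kilobase of exon. Hsp90ab1 was highest at 539 ± 26.0 RPKM (mean ± SD over the 9 libraries), followed by Hspa8 at 369 ± 36.3 and Hsp90aa1 at 250.2 ± 27.5 RPKM. These 3 stood apart from each other and from the fourth, Stip1 at 79.4 ± 4.98 RPKM, in all 9 libraries. Hspa5 led the ER genes with Hsp90b1 (65.3 ± 8.51 and 71.2 ± 3.64 RPKM), and Hspd1 the mitochondrial ones (50.1 ± 3.83 RPKM). Dnajb5 was in the middle at 30.7 ± 7.86 RPKM, above Dnajb1 at 22.5 ± 3.06 RPKM. The inducible Hspa1a and Hspa1b were low, at 7.69 ± 1.07 and 8.94 ± 2.06 RPKM, and Bag3 was lowest at 2.09 ± 0.168 RPKM. Of the 35 pairs of neighbours in this order 28 overlapped between libraries and 7 did not. Reads shared with copies could move Hspa8, Hsp90aa1, Hspa1a and Hspa1b, among others, in it. The length was that of all annotated exons of a gene, not of the transcripts present, which could also move genes in the order.

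**Figure D4:**
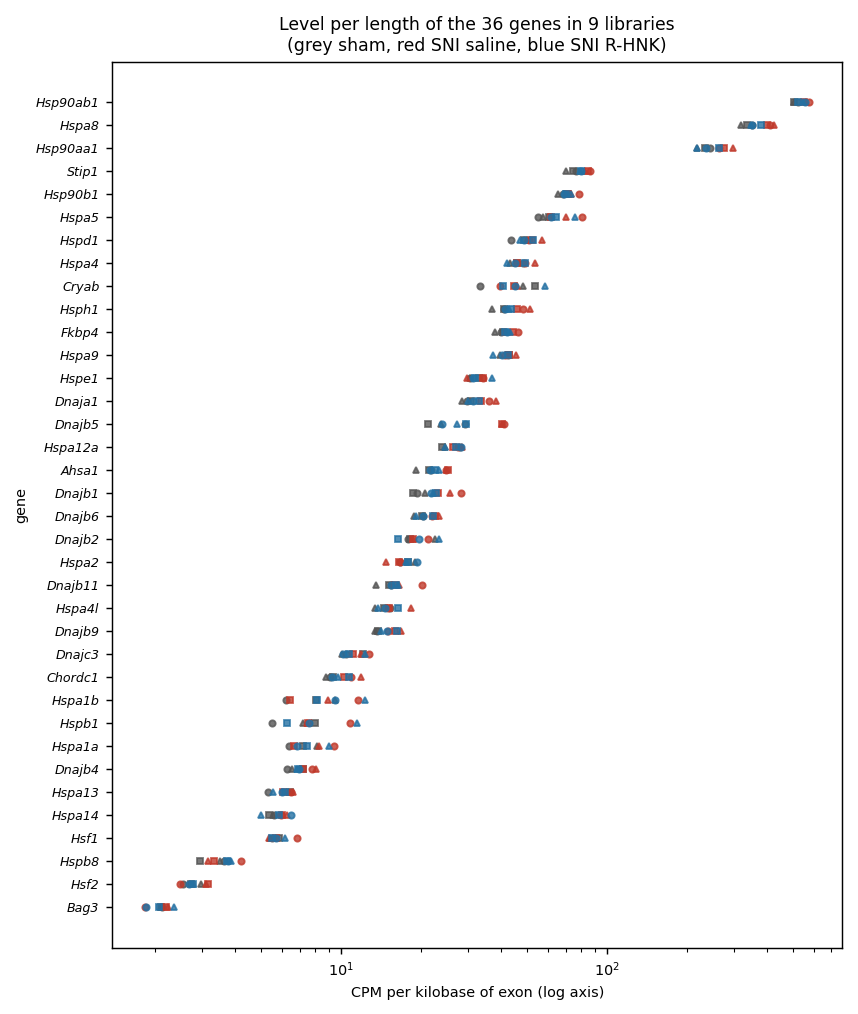
Level per kilobase of exon (RPKM, log axis) of the 36 genes, ordered by the mean over 9 libraries, with grey for sham, red for SNI saline and blue for SNI R-HNK. Hsp90ab1, Hspa8 and Hsp90aa1 stand well to the right of the other 33 genes.

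The other genes of protein folding included cytosolic genes with the same direction as the members. Of 39 further cytosolic chaperone genes (the TRiC ring, prefoldin, other DNAJ and BAG proteins), 0 passed from sham to SNI saline in edgeR, 9 were higher (23.1%, against 7.52% of all genes) and 0 lower at an unadjusted p under 0.05, and DESeq2 and limma-voom each called 3 higher and 0 lower. In 18 of the 39 every SNI saline library was above every sham library (46.2%, against 10.9% of all genes), and 33 had a fold change above 0 (84.6%, against 47.6%). The smallest p was that of Pfdn2, a prefoldin subunit, at 0.25 ± 0.06 (adjusted p = 0.0804). Of 30 genes of ER folding and the unfolded protein response, 0 passed as higher and 1, Trib3, as lower in edgeR, with 5 higher (16.7%) at an unadjusted p under 0.05, and DESeq2 and limma-voom each called 2 higher and 1 lower. Trib3, a pseudokinase induced by ER stress, measured 0.650, 0.836 and 1.31 CPM in sham, 0.174, 0.283 and 0.187 CPM in SNI saline and 0.716, 0.588 and 0.718 CPM in SNI R-HNK mice, a fall on few counts (-2.11 ± 0.42, adjusted p = 0.0365) that missed the threshold once the striatal covariate was fitted or the 4 striatal-high libraries were left out. Of 21 genes of mitochondrial folding and proteolysis 0 passed in edgeR in either direction, with 4 higher (19.0%) and 0 lower at an unadjusted p under 0.05, and DESeq2 and limma-voom each called 1 higher and 0 lower. Grpel2, a nucleotide exchange factor for mitochondrial HSP70, had the smallest p, at 0.31 ± 0.09 (adjusted p = 0.103). The median fold changes of the 3 lists were 0.11, 0.09 and 0.01, against -0.02 over all genes. From SNI saline to SNI R-HNK, 0 genes of the 3 lists passed in edgeR, DESeq2 or limma-voom, with 3 lower and 1 higher at an unadjusted p under 0.05 over the 3 lists. The smallest p were those of Dnajb12 (-0.14 ± 0.07, adjusted p = 0.688), Trib3 (1.64 ± 0.42, adjusted p = 0.322) and Tomm34 (-0.21 ± 0.08, adjusted p = 0.606). Against sham, 0 passed in SNI R-HNK mice by the same 3 tools, and 1, Pfdn2, was higher at an unadjusted p under 0.05 (0.18 ± 0.06, adjusted p = 1.00). The smallest p of the ER and mitochondrial lists were those of Xbp1 (0.20 ± 0.09) and Grpel2 (0.15 ± 0.09), both at an adjusted p of 1.00.

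Immediate early genes, which neurons switch on within minutes of firing, were also highest in the SNI saline libraries. Of 14 such genes 11 rose from sham to SNI saline in edgeR and 0 fell, with a median of 1.11. They summed to 924 to 1161 CPM in sham, 2174 to 2389.8 CPM in SNI saline and 1206 to 1460.4 CPM in SNI R-HNK libraries, and the 3 ranges did not overlap. By smallest p the first 4 were Dusp6 (1.08 ± 0.09, adjusted p = 0.000198), Egr4 (1.01 ± 0.09, adjusted p = 0.000205), Nr4a3 (1.23 ± 0.11, adjusted p = 0.000271) and Egr2 (1.65 ± 0.16, adjusted p = 0.000389). With R-HNK 5 of the 14 fell in edgeR, 9 in DESeq2 and 8 in limma-voom, with a median of -0.69, and 7 fell in edgeR without the striatal-high libraries. The first 4 were Dusp6 (-0.79 ± 0.09, adjusted p = 0.00335), Egr4 (-0.62 ± 0.08, adjusted p = 0.0134), Nr4a3 (-0.80 ± 0.11, adjusted p = 0.0134) and Egr1 (-0.63 ± 0.10, adjusted p = 0.0267). Against sham 0 of the 14 passed in SNI R-HNK mice in edgeR (11 higher and 0 lower at an unadjusted p under 0.05), 2 in DESeq2 and 0 in limma-voom, and without the striatal-high libraries 4 (Fos, Junb, Egr2 and Btg2) passed as higher in edgeR. With all 9 libraries Egr2 had the smallest p (0.78 ± 0.16, adjusted p = 0.930). The summed levels by library show the cytosolic chaperones following the same order of groups in smaller steps. Their sums were nearly equal in sham replicate 1 and SNI R-HNK replicate 3, at 6462.07 and 6462.85 CPM. Hsp90ab1, Hspa8 and Hsp90aa1 made up much of this sum, with sham means of 1532, 1444 and 912 of 6252 CPM. The part of neuronal activity in the chaperone levels was not tested.

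**Figure D5:**
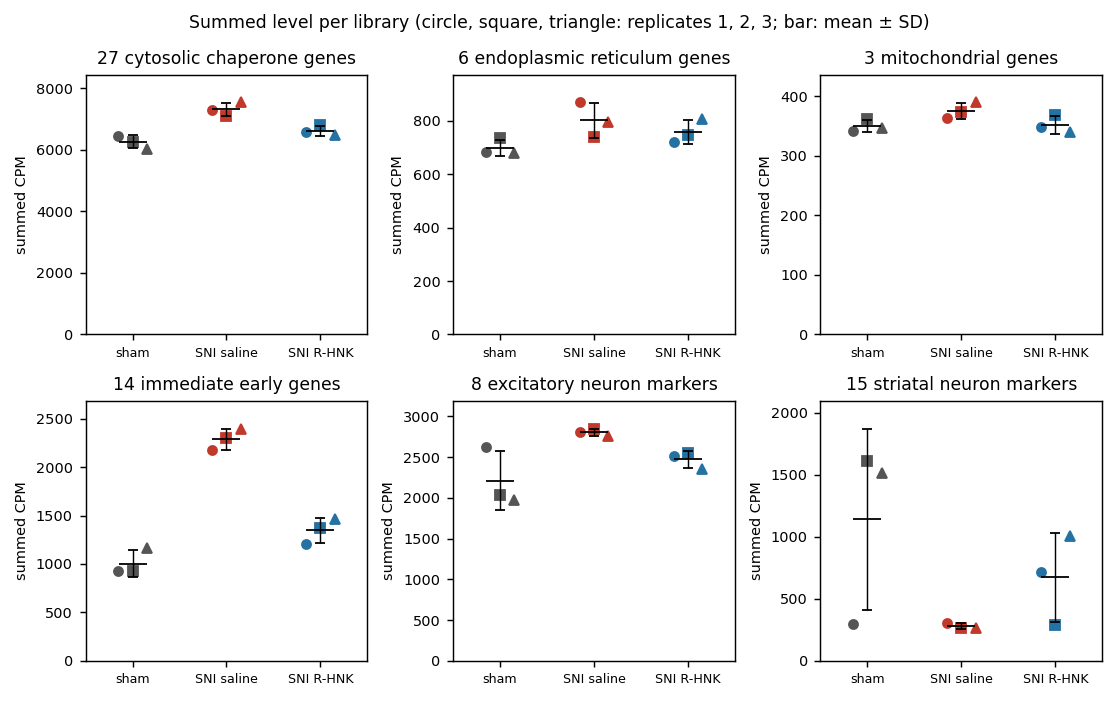
Summed CPM per library of the 27 cytosolic, 6 ER and 3 mitochondrial genes (top) and of the immediate early genes, excitatory neuron markers and striatal neuron markers (bottom), by group, with circle, square and triangle for replicates 1, 2 and 3 and a bar for the mean ± SD. The immediate early and cytosolic sums are highest in the 3 SNI saline libraries, and the striatal sum is high in sham replicates 2 and 3 and SNI R-HNK replicates 1 and 3.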

How the data were processed

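RNA from the prelimbic cortex of 9 mice, 3 per group, was sequenced on an Illumina instrument, per the labels. The submitters' processing notes name HISAT2 2.0.5, featureCounts 1.5.0-p3 and mm10. The deposited table holds expected counts (estimated counts, all whole numbers) per gene, not normalized by the authors. The table's name gives StringTie as the counter instead, so whether the values are read tallies or estimates is not known. Use of strand or read pairs in counting was not given in the sources used here. Genes were filtered with filterByExpr by group (21765 kept), scaled by TMM and tested with edgeR 4.0.16 (R 4.3.3), robust quasi-likelihood, over all 9 libraries with 1 mean per group, with Benjamini-Hochberg adjustment over all genes. The SE is the fold change divided by the root of the test's F. Exact permutation of 3 mice against 3 cannot go below p = 0.1. Other settings used DESeq2 1.42.0 and limma 3.58.1 and are given in the closing section. The code was tested on simulated counts. Gene positions, lengths and overlaps came from GENCODE M21 and promoters from RefSeq. The members and lists were chosen with earlier results of these data known. Values by library are given for members that passed in any test, for the 3 cytosolic, 2 ER and 1 mitochondrial members with the smallest p in the test of any difference not yet named, and for 13 textbook members. Of each list up to 4 genes that passed are named by smallest p, or else the 1 gene with the smallest p.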

Additional observations from a re-analysis of the deposited data

How the results depend on the processing

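From sham to SNI saline, 2 members passed with TMM, relative log expression or upper quartile factors. The number was 4 without the low-count filter, 9 in DESeq2, 8 in limma-voom with quality weights, 1 with the striatal score as a covariate, 0 without the 4 libraries raised in Drd2 and Adora2a, and 1 when only the 2 groups were fitted. The same fits called 370 of 35001, 1185, 1135, 85, 86 and 193 of all genes, against 233 with TMM in edgeR. With 1 library left out it ran from 1 to 6, and 6 came without sham replicate 1, when 1170 of all genes passed. From SNI saline to SNI R-HNK it was 0 with all libraries and 1 without the filter, in DESeq2, in limma-voom and with only the 2 groups, and it ran from 0 to 1 with 1 library left out. From sham to SNI R-HNK it was 0 in every setting run. In the test of any difference it was 1, and 6 in DESeq2, 2 in limma-voom and 0 with the striatal covariate. Those fits called 83, 679, 420 and 40 of all genes in the same order. With 1 library left out the number of members ran from 0 to 2. Dnajb5 missed the threshold for any difference without SNI saline replicate 1, 2 or 3. The causes were not tested. The signs of 972 fold changes were followed over these settings and left-out libraries, for members named by p and the textbook members only. Of these, 0 of the called ones changed sign, and 44 uncalled ones had the opposite sign. Among members outside that set, Dnajb2 had the opposite sign in 12 of 18 alternatives from sham to SNI saline. Hsf2 had it in 8 of 18 from sham to SNI R-HNK. Replicate numbers showed no clear pairing: same-numbered libraries of different groups correlated in their deviations at -0.19 to 0.32 over 10983 genes. Differently numbered ones correlated at -0.47 to 0.34. Both ends of that range came from pairs that differ or match in striatal markers, so the check cannot exclude a pairing. With the replicate block, 1 member (Dnajb5) passed from sham to SNI saline, and 0 from SNI saline to SNI R-HNK, from sham to SNI R-HNK and for any difference. The lowest counts were those of Bag3, 270 to 384 a library, so its differences are the least precise in counting.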
